A study of Mus musculus with 2 samples.

Results

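The genes described here are the heat shock proteins and molecular chaperones of the mouse: the HSP70, HSP110, HSP90 and small heat shock families, the J-domain co-chaperones of classes A, B and C, the chaperonins of cytosol and mitochondria, the co-chaperone Bag3 and the regulator Hsf1. They were taken by symbol from the protein-coding genes of GENCODE M21, which gave 83 members among 54438 annotated genes listed. The study sequenced sorted mammary basal cells, the outer, keratin-rich epithelial layer of the ducts, and its title concerns basal cells with and without Pd-l1, an immune checkpoint ligand. The 2 libraries, named W1 and W2, are both from wild type C57BL/6 mammary gland at 8 weeks of age, with no treatment other than dissociation to single cells, and their labels differ in the title alone. Neither could be placed in a Pd-l1 class, neither has a replicate, and the sources used here do not give how many animals or cells went into each. Every value below therefore belongs to a single library, no test was possible, and a difference is one between these libraries and not between conditions.

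Chaperones keep other proteins folded. HSP70 proteins bind short hydrophobic stretches in a cycle of ATP hydrolysis that J-domain proteins start and that nucleotide exchange factors, HSP110 and BAG proteins among them, bring to an end. HSP90 takes late folding intermediates such as kinases and steroid receptors, the chaperonins enclose a substrate in a barrel, and small heat shock proteins hold unfolded proteins in reserve. Many members are made at all times. Others are induced: Hsf1, the heat shock transcription factor, drives genes of cytosol and mitochondria when unfolded protein accumulates, and the unfolded protein response does the same for chaperones of the endoplasmic reticulum (ER). Tissue dissociation and cell sorting are known to start the heat shock response in many cell types. The members were therefore split by textbook knowledge into a heat shock list of 13, an ER stress list of 7, Hsf1 on its own and 62 constitutive members. The last class holds every other member, and 43 of its 62 genes had reads. Constitutive is therefore a name for the remainder and does not state that each gene is made at all times.

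The DNA around the start sites was searched for the motifs known for each kind of induction. Windows of 300 bases around the start site, 250 before and 50 after, came from RefSeq (GRCm38.p6), which held 67 of the 83 members. The pair of stress-inducible HSP70 genes, Hspa1a and Hspa1b, lie beside each other on chromosome 17, and the 250 bases before their starts are shown because they are nearly the same. Both are printed 5′ to 3′ on the minus strand, Hspa1a from chr17:34972157-34972406 and Hspa1b from chr17:34959239-34959488, with the heat shock core in capitals.
Hspa1a: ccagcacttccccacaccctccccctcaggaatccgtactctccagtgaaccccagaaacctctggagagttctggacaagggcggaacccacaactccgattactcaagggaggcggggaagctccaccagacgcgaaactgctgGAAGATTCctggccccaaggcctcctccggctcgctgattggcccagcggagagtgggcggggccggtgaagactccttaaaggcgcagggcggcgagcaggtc
Hspa1b: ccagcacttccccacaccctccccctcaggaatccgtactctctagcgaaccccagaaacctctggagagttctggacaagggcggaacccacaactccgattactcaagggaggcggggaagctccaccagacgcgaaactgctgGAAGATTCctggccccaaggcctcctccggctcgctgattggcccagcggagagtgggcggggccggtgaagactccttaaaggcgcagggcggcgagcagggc
The stretches differ at 3 of 250 bases (98.8% identical), C44T, T47C and T249G, with the Hspa1a base first and positions counted from 1 at the 5′ end of the stretch.

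Shorter stretches show how the motif is arranged in the heat shock members that carry the results below. Each is 30 bases, 5′ to 3′ on the strand of the gene, with the motif in capitals. The stretch of Hspe1, the mitochondrial co-chaperonin, is chr1:55088053-55088082 on the plus strand and is also first-exon sequence of its neighbour Hspd1 in GENCODE M21. That of Hspb8 is chr5:116422844-116422873 on the minus strand, and that of Bag3 is chr7:128523603-128523632 on the plus strand; both reach into the first exon, and the core of each lies after the RefSeq start site. That of Hspb1 is chr5:135887801-135887830 on the plus strand and lies before the gene.
Hspe1: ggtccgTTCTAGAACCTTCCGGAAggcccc
Hspb8: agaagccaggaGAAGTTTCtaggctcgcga
Bag3: ccaagttctctggatgggaccaGAAGTTTC
Hspb1: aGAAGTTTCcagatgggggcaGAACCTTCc
Hspd1 and Hspe1 are transcribed away from each other from one control region, and a window of Hspd1 shared 285 bases with that of Hspe1. For the ER stress list the corresponding motif is the ER stress element, shown in capitals for Hspa5, the main HSP70 of the ER (chr2:34772020-34772049, plus strand), and Dnajc3, an ER J-domain protein (chr14:118937822-118937851, plus strand).
Hspa5: cttcaCCAATCGGAGGCCTCCACGacgggg
Dnajc3: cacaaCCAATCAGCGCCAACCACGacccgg

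The heat shock core was searched as GAANNTTC or TTCNNGAA on both strands. It was present in a window of 11 of the 12 heat shock members in the table (91.7%), all except Dnajb1. In comparison, it was present for 8 of 49 constitutive members (16.3%), 1 of 6 ER stress members, Dnajc10, and 17.0% of 27025 genes. The 3-unit form, GAANNTTCNNGAA or TTCNNGAANNTTC, which overlaps the core, was found for Hsph1, Hspd1 and Hspe1 in the heat shock list and for Dnajb6 among the constitutive members, against 0.662% of all genes. The ER stress element, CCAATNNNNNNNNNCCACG on either strand, was found for Hspa5, Hsp90b1 and Dnajc3, with 2 matches for Hsp90b1, against 0.137% of all genes. The lists were drawn from known targets of these pathways, so the shares describe the lists, and a match is not a measured binding site.

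**Figure D1:**
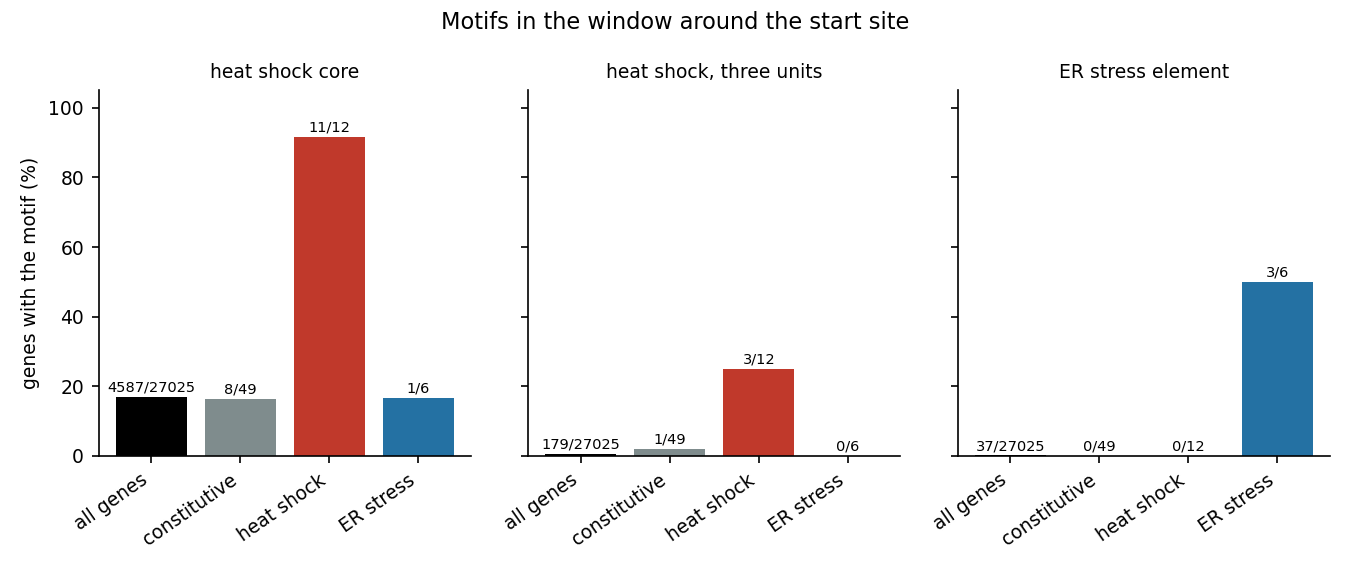
Share of genes (y axis, %) with each motif in a window from 250 bases before to 50 after a start site, for all genes in the RefSeq table, constitutive members, and the heat shock and ER stress lists; the number over each bar is genes with the motif over genes with a window. The heat shock core stood in 11 of 12 heat shock members and 17.0% of all genes, and the ER stress element in 3 of 6 ER stress members and 0.137% of all genes.

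The deposited values are transcripts in proportion to their sum and length (TPM, which has the same total in both libraries), summed here over the listed transcripts of a gene. The number of reads behind each value was recovered from the deposited FPKM (fragments per length of transcript and depth of library), which gave 3055830 counted reads in W1 and 3800035 in W2. The libraries did not hold the same mix of cells by their markers. The summed level of 7 basal markers was 222 TPM in W1 and 14875 TPM in W2, with Krt5 at 0 reads in W1 and Trp63 and Itgb4 at 0 in both. The 6 contractile markers of the basal layer summed to 14.0 and 25348 TPM, and the 10 luminal markers to 32.8 and 4212 TPM. The 10 endothelial markers went the other way, at 7153 and 4.78 TPM, with Cdh5, Cldn5, Kdr, Flt1, Lyve1 and Prox1 at 0 reads in W2. The 5 fibroblast markers summed to 2.78 and 191 TPM and the 6 leukocyte markers to 80.1 and 0.267 TPM, the latter mostly Lyz2 and Cd79a. Of the other leukocyte markers, Ptprc had 6 reads in W1 and 0 in W2, and Cd68 had 1 read in each. Cd3e and Adgre1 had 0 in both. The sum of the 3 pericyte markers, 59.2 and 51.3 TPM, was near level but came from Rgs5 alone. Pdgfrb and Cspg4 had 0 reads in both. Not all markers followed their set. Itga6 (140.0 and 169.7 TPM) and Itgb1 (81.8 and 119.8 TPM) lay within 2-fold and made up nearly all of the basal sum in W1. Kit, most of the luminal sum in W1, had 25.5 TPM there and 0 in W2, and Esr1 also lay toward W1. By its keratin, contractile and endothelial markers W1 went against its label of basal cells, and this holds beside every difference below. The part of cell type in any of them was not tested. In a bulk library fewer cells of a type and less RNA per cell cannot be told apart.

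Of the 83 members, 58 reached 1 TPM in either library and were compared. A further 6 were above 0 but under that level, and 19 had 0 reads in both. A gene was called higher in a library when the ratio of TPM + 1 was 2-fold or more. By that measure 12 members (20.7%) were higher in W1, 18 (31.0%) in W2, and 28 were within 2-fold. Over all 12587 genes compared, 34.7% were higher in W1, 32.9% in W2 and 67.6% differed either way. The share of members toward W2 was thus near the background, and the share toward W1 was below it. The median log2 ratio (W1 over W2) of the members was -0.36 against -0.07 over all genes, and the median absolute log2 ratio was 1.04 against 1.45. With 20 or more reads in at least 1 library, 9 of 48 members (18.8%) were higher in W1 and 14 (29.2%) in W2. Of 8972 genes under the same filter, 29.7% and 34.1% were. The median log2 ratio there was -0.36 for members and -0.25 for all genes, so the medians lay closer together. Summed over members, chaperone transcripts made up 2437 TPM of W1 and 4164 TPM of W2, from 18762 and 30910 reads. Protein-coding transcripts of all genes made up 38.8% of TPM in W1 and 57.0% in W2. A larger sum in W2 was therefore not particular to chaperones.

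The scale matters for small differences. On the deposited FPKM, which sum to 991550 in W1 and 802782 in W2, the median log2 ratio of all genes moved by 0.30 toward W1. With mitochondrially encoded and ribosomal protein genes left out and TPM rescaled, it moved by -0.25, toward W2. Against these shifts the direction of 9 compared members was not fixed, namely Dnaja2, Dnajc3, Dnajc7, Dnajc11, Dnajc27, Hsp90aa1, Hsp90b1, Hspa1a and Hspa4, and their ratios below are given as levels in TPM with no direction drawn from them. The other 49 compared members kept their direction on all 3 scales.

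**Figure D2:**
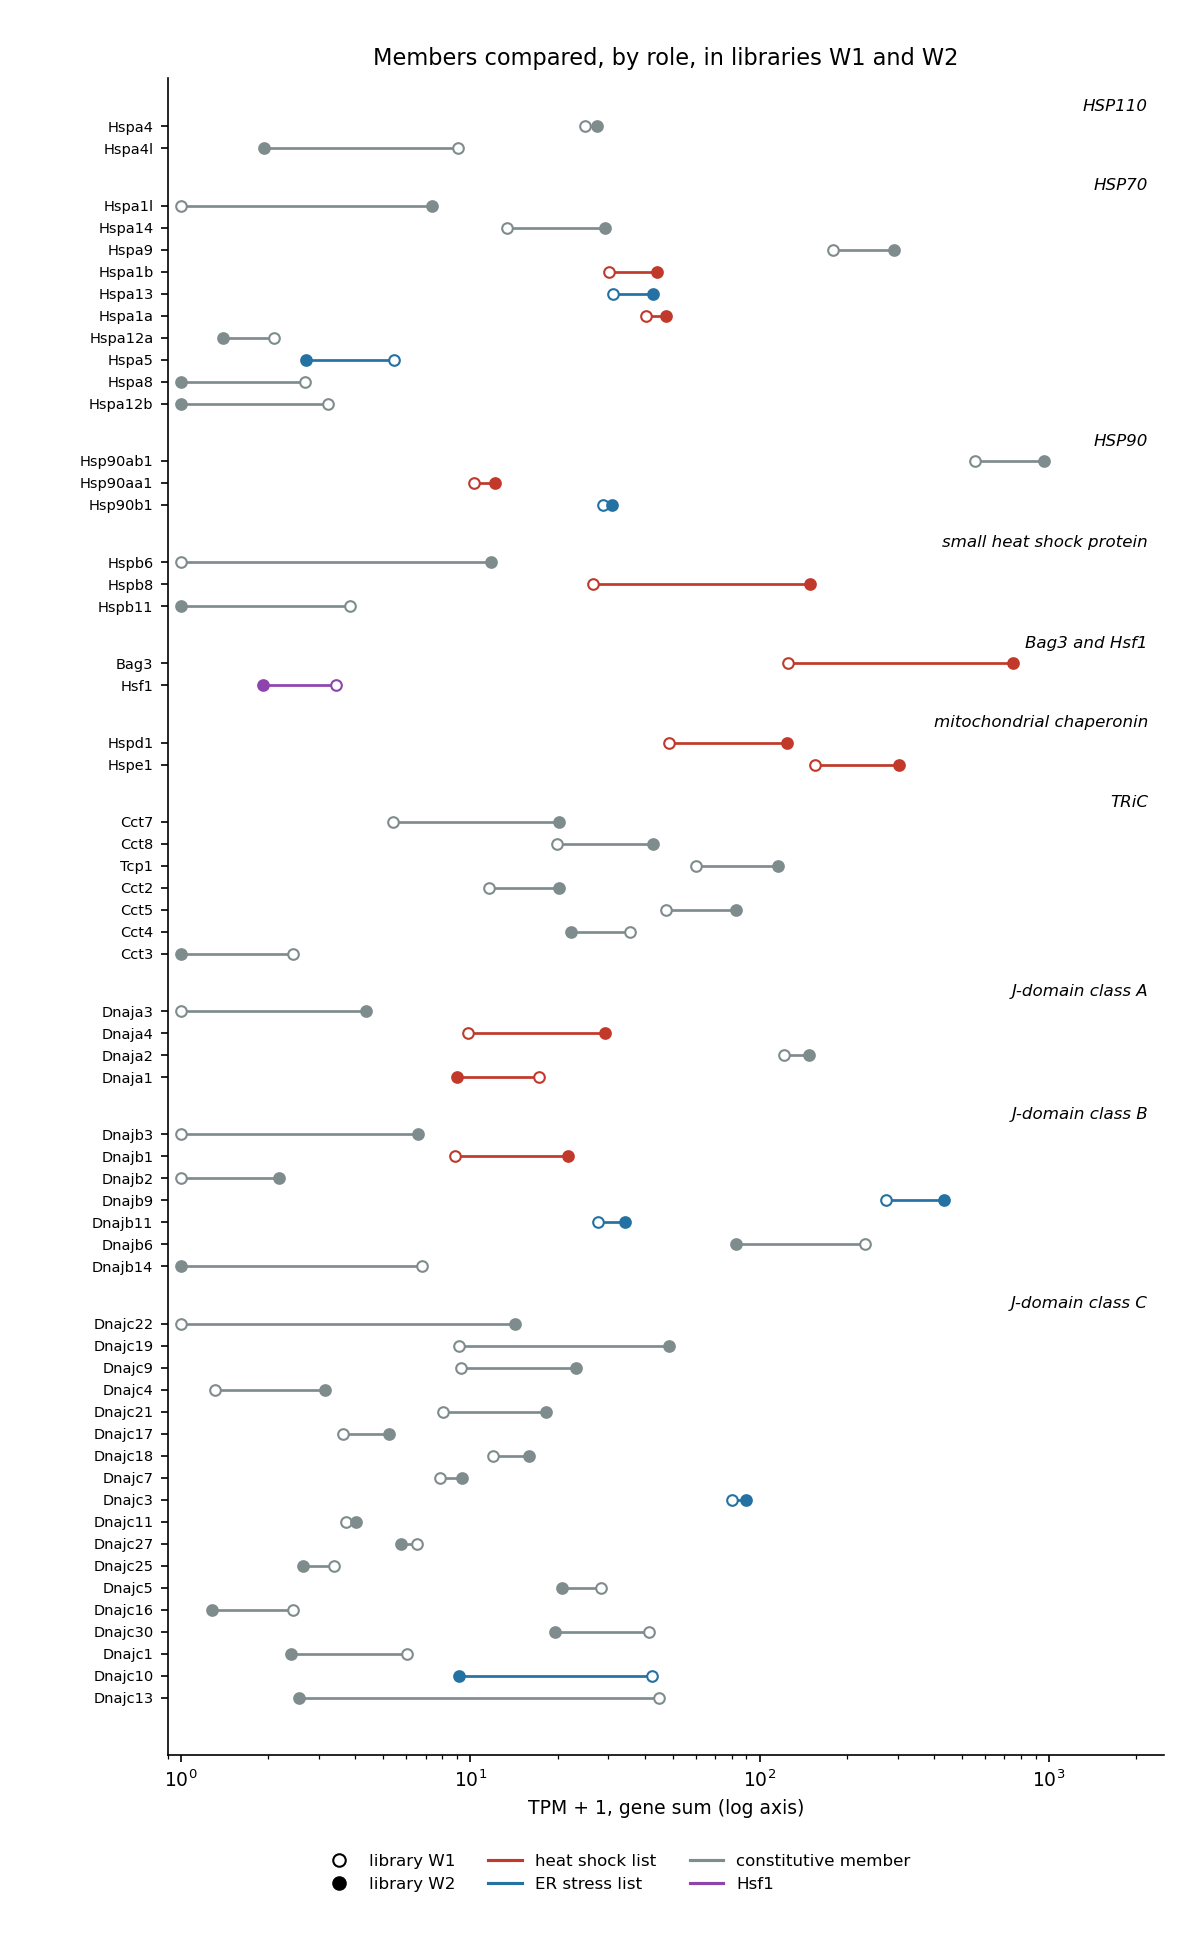
Level of each of the 58 compared members, grouped by role (y axis), as TPM + 1 on a log axis (x axis); open circles are W1, filled circles W2, and colours mark the heat shock list, the ER stress list, constitutive members and Hsf1. Bag3 and Hspb8 show the widest gaps toward W2 in the heat shock list, and Dnajc13 the widest gap toward W1.

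**Figure D3:**
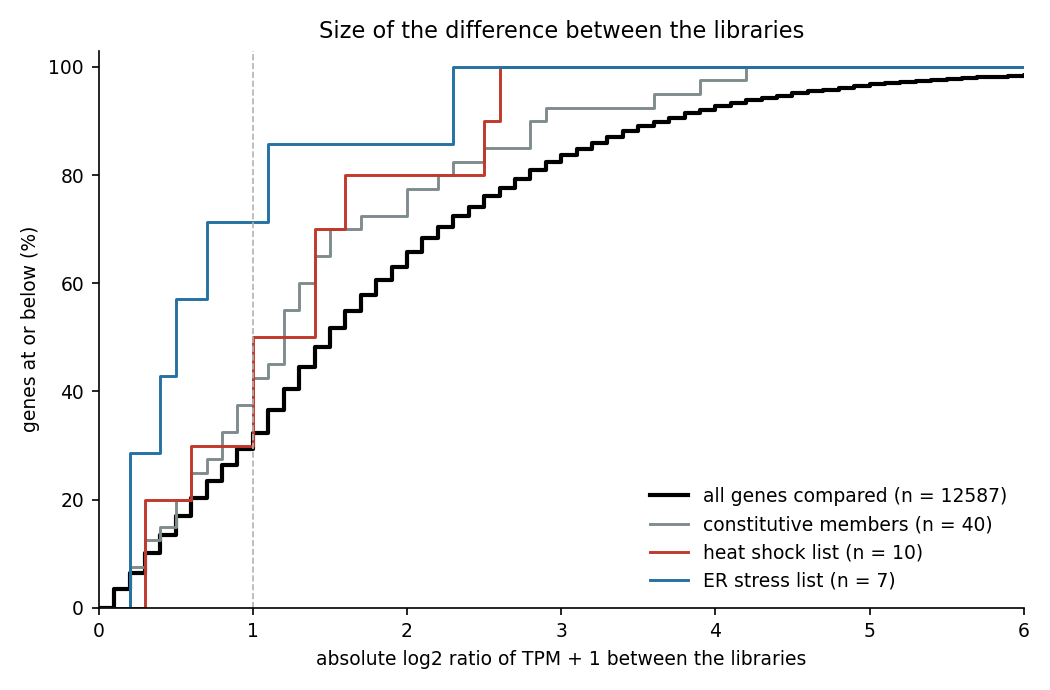
Cumulative share of genes (y axis, %) at or below each absolute log2 ratio of TPM + 1 between the libraries (x axis), for all 12587 genes compared, the 40 constitutive members, the 10 heat shock members and the 7 ER stress members; the dashed line marks 2-fold. At that line the constitutive members stood at 42.5%, the heat shock list at 5 of 10 genes, the ER stress list at 71.4% and all genes at 32.4%.

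In the heat shock list, 5 of the 10 members compared were higher in W2, namely Bag3, Hspb8, Dnaja4, Dnajb1 and Hspd1, none was higher in W1, and 5 were within 2-fold. On the FPKM scale the same 5 of 10 were higher in W2 and Dnaja1 in W1, where 28.1% and 37.8% of all genes were. On the rescaled TPM 11 were compared, with 6 higher in W2, Hspe1 added, and Hsph1 in W1. The shares of all genes there were 37.8% toward W2 and 33.2% toward W1. On the main scale the background shares are 32.9% toward W2 and 34.7% toward W1 as given above. The 5 of 10 toward W2 are thus a small excess in a list of few genes. The median log2 ratio of the 10 was -1.14, against -0.35 for the 40 constitutive members compared. Over all 13 members of the list, each with reads in a library, it was -0.55, since Dnajb4, Hspb1 and Hsph1, under the level for comparison, all lay toward W1, and over the 43 constitutive members with reads it was -0.41. Of the 40 constitutive members compared, 10 (25.0%) were higher in W1 and 13 (32.5%) in W2 (9 and 19 of 41 on the rescaled TPM). Summed over the list, the level was 463 TPM in W1 and 1481 TPM in W2, and Bag3 alone made up 124 and 751 TPM of those sums. The summed level of the constitutive members was 1488 and 2046 TPM. Beside these sums, protein-coding transcripts of all genes held 388271 TPM in W1 and 570383 TPM in W2.

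Bag3 gave the best measured difference. This co-chaperone links HSP70 to small heat shock proteins and to the removal of damaged proteins by autophagy, and it is needed in contractile cells. The gene (chr7:128523616-128546981, plus strand, GRCm38) has 1 listed transcript, none of whose 2513 50-base stretches occurs elsewhere in the annotation. It stood at 124 TPM (960 reads) in W1 and 751 TPM (5870 reads) in W2. W2 was 6.07-fold higher, with an exact 95% counting interval of 5.67 to 6.51; such intervals cover counting error in these libraries and nothing else. Its partner Hspb8 (chr5:116408491-116422864, minus strand), a small heat shock protein that binds Bag3, stood at 25.6 TPM (141 reads) and 148 TPM (818 reads). The ratio toward W2 was 5.76-fold (4.81 to 6.94). The intervals of Bag3 and Hspb8 overlap, so the pair had ratios that counting error does not separate.

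The mitochondrial chaperonin genes were both at a higher level in W2. Hspd1 (HSP60, the barrel; chr1:55077835-55088243, minus strand) stood at 47.4 and 123 TPM (348 and 908 reads), 2.60-fold higher in W2 (2.29 to 2.95). Hspe1 (HSP10, its lid; chr1:55088132-55091307, plus strand) stood at 154 and 301 TPM (360 and 711 reads), a ratio of 1.96 (1.73 to 2.23) and a log2 ratio of -0.97, just under the 2-fold line. Hspe1 thus lay on that line, with an interval that reached to either side of it. The pair share the control region printed above.

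The J-domain proteins of the list were Dnaja4, Dnajb1, Dnaja1 and Dnajb4. Dnaja4 (chr9:54698873-54716315, plus strand) stood at 8.79 TPM (80 reads) in W1 and 28.3 TPM (259 reads) in W2, a ratio of 3.22 (2.49 to 4.19). Of the 2954 50-base stretches of its counted transcript, 151 were its own and 1532 were shared with the neighbouring gene Wdr61, so reads of either may have been counted for the other. Dnajb1 (HSP40, the main inducible partner of HSP70; chr8:83608193-83612653, plus strand) stood at 7.82 TPM (71 reads) and 20.8 TPM (190 reads), a ratio of 2.66 (2.02 to 3.55). On the TPM scale the whole interval of each lay above 2-fold toward W2. Dnaja1, which works with HSC70 and HSP70, was at 16.2 and 7.96 TPM (84 and 73 reads), but this gene sum mixed transcripts that went opposite ways. Its coding transcript stood at 1.29 and 3.32 TPM, 2.57-fold higher in W2 (1.55 to 4.42), and a non-coding processed transcript at 13.7 and 4.64 TPM, 2.96-fold higher in W1 (1.65 to 5.59). Dnajb4 was under the level for comparison at 0.806 and 0.266 TPM (12 and 2 reads).

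The inducible HSP70 genes themselves lay within 2-fold. Hspa1a (chr17:34969190-34972156, minus strand) stood at 39.3 TPM (353 reads) in W1 and 46.6 TPM (422 reads) in W2, a ratio of 1.19 (1.03 to 1.37). Hspa1b (chr17:34956436-34959238, minus strand) stood at 29.1 TPM (247 reads) and 43.0 TPM (368 reads), a ratio of 1.48 (1.26 to 1.75). These genes shared 1716 50-base stretches, with 983 of 2918 and 1038 of 2754 their own, so reads may have been split between them and their separate levels are uncertain. Both were well counted and within 2-fold, in contrast to Bag3. The narrow heat shock list of 7, limited to the most widely used targets, had 2 of 5 compared members (40.0%) higher in W2 and none in W1. Over all genes 32.9% and 34.7% were, so in so few genes the share toward W2 was near the background. The median log2 ratio of the 5 was -0.55.

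Hsp90aa1, the inducible cytosolic HSP90, stood at 9.27 and 11.2 TPM (52 and 112 reads). Its coding transcript alone was at 4.53 TPM (45 reads) and 11.2 TPM (112 reads), 2.47-fold higher in W2 (1.73 to 3.58), and a short retained-intron transcript with 7 reads supplied 4.74 TPM of the sum in W1. The call for Hsp90aa1 therefore depended on that transcript. Hsph1 (HSP110, the inducible exchange factor) had 11 reads (0.955 TPM) in W1 and 0 in W2, at least 3.69-fold higher in W1 against a floor of 3 reads, though under the level for comparison. Hspb1 (HSP27) had 1 read in W1 and 0 in W2, too few to rank. Hsf1 was at 2.42 and 0.919 TPM (17 and 4 reads), all on retained-intron transcripts, a ratio of 2.63 with an interval from 0.859 to 10.8.

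**Figure D4:**
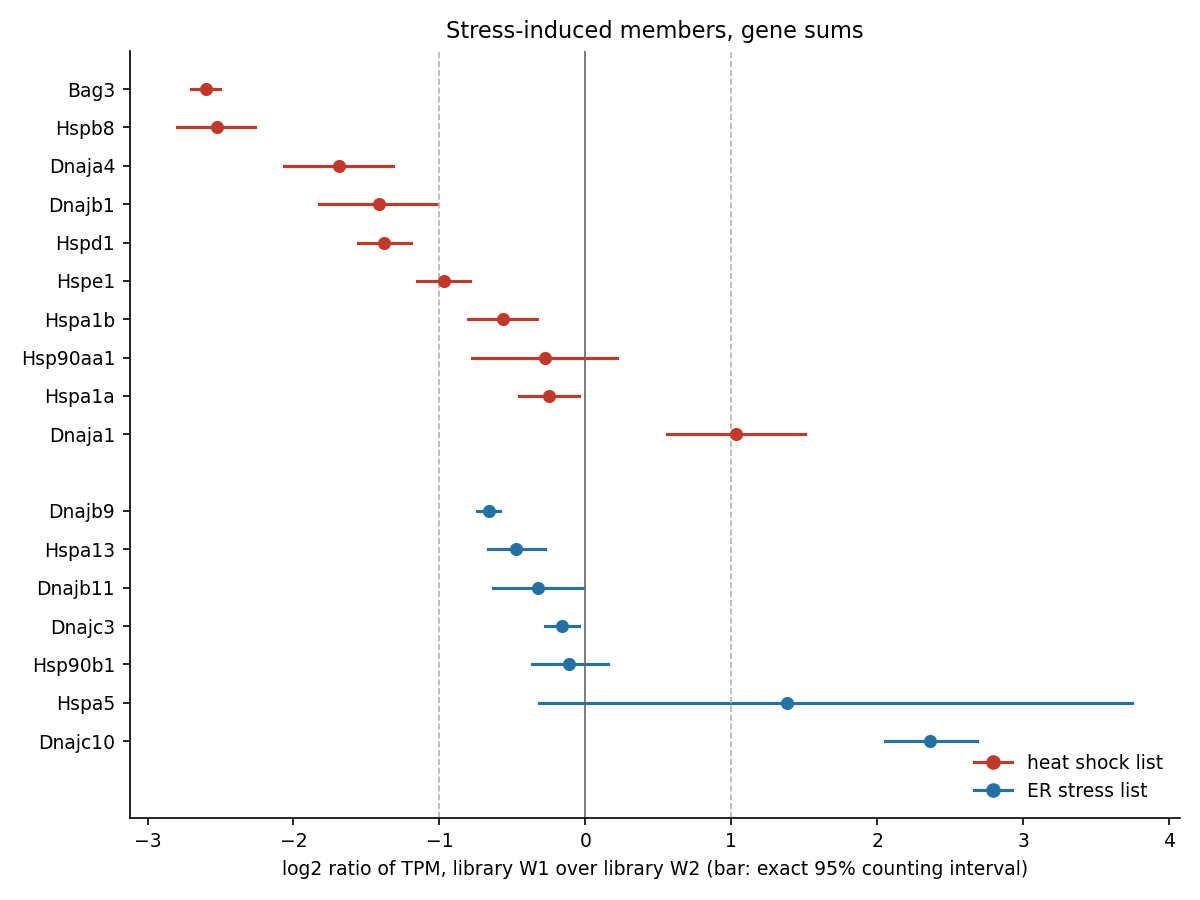
Log2 ratio of TPM, W1 over W2 (x axis), for the 10 heat shock and 7 ER stress members compared (y axis); points are gene sums, bars the exact 95% counting interval, and dashed lines 2-fold either way. Bag3, Hspb8, Dnaja4, Dnajb1 and Hspd1 lie left of the 2-fold line, and 5 of the 7 ER stress members lie within 2-fold.

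Immediate early genes, which dissociation and sorting also induce, are given beside the heat shock list. Of 19 such genes 16 were compared, with 3 higher in W1 (Fosb, Klf2 and Dusp1), 5 higher in W2 (Atf3, Fosl1, Ier2, Ier3 and Nr4a1) and 8 within 2-fold, at a median log2 ratio of -0.54. Their share toward W2, 31.2%, was near the 32.9% of all genes, and that toward W1, 18.8%, was below 34.7%. Fos stood at 2547 and 4295 TPM, Junb at 1741 and 2652 TPM, and Jun at 197 and 276 TPM. All 3 were thus abundant in both libraries and moderately higher in W2. In contrast, Jund, at 1105 and 959 TPM, was near level, and Klf2, at 527 and 23.6 TPM, was higher in W1. The part of handling in the heat shock values was not tested.

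The ER stress list showed no common direction. Of its 7 members, all compared, 2 (28.6%) were higher in W1, Dnajc10 and Hspa5, and 5 were within 2-fold. Over all genes 34.7% were higher in W1. The median log2 ratio of the list was -0.16, and its summed levels were 484 and 636 TPM. Dnajc10 (ERdj5, an ER disulfide reductase with a J domain; chr2:80315466-80354043, plus strand) stood at 41.6 TPM (510 reads) in W1 and 8.11 TPM (100 reads) in W2. It was 5.13-fold higher in W1 (4.14 to 6.43), while the other well counted members of the list lay within 2-fold. Hspa5 (BiP) was listed at only 4.46 and 1.71 TPM (28 and 3 reads), with an interval for its ratio of 2.60 from 0.804 to 13.4. Its coding transcript had 24 reads in W1 and 0 in W2, and the call rests on those few reads; on the rescaled TPM the log2 ratio was 0.83 and the call was lost.

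The other 5 ER members stood close together in both libraries. Dnajb9 (ERdj4, which recruits BiP to the stress sensor Ire1; chr12:44205559-44210326, minus strand) was at 273 TPM (2028 reads) and 432 TPM (3245 reads), a ratio of 1.58 toward W2 (1.5 to 1.67). Hspa13 (STCH) was at 30.1 and 41.7 TPM, a ratio of 1.39 (1.21 to 1.59). Dnajb11 (ERdj3), at 26.7 and 33.3 TPM, gave 1.25 (1.01 to 1.55), and Dnajc3 (P58IPK, an inhibitor of the stress kinase Perk), at 79.5 and 88.8 TPM, gave 1.12 (1.03 to 1.21). Hsp90b1 (GRP94), the HSP90 of the ER, was at 27.7 and 29.8 TPM (238 and 257 reads), a ratio of 1.08 (0.898 to 1.29) that counting error does not separate from equal levels.

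Among constitutive HSP90 and HSP70 genes, Hsp90ab1 and Hspa9 had the most reads. Hsp90ab1, the cytosolic HSP90 made at all times (chr17:45567775-45573271, minus strand), stood at 554 TPM (4230 reads) in W1 and 962 TPM (7390 reads) in W2, a ratio of 1.74 (1.67 to 1.80). Hspa9 (mortalin, the HSP70 of mitochondria) stood at 178 TPM (1643 reads) and 291 TPM (2704 reads), a ratio of 1.63 (1.54 to 1.74). Both lay under the 2-fold line with narrow intervals on the side of W2, and on the rescaled TPM Hsp90ab1 passed it (log2 ratio -1.09). Hspa14, a ribosome-associated HSP70, stood at 12.4 and 28.3 TPM (54 and 121 reads), a ratio of 2.28 (1.64 to 3.21), and its call was lost on FPKM (log2 ratio -0.84). Of that sum, its coding transcript gave 8.82 and 16.6 TPM, a ratio of 1.88 (1.31 to 2.73), and the rest came from retained-intron transcripts. Hspa1l, a testis-enriched HSP70 beside Hspa1a, had 0 reads in W1 and 48 reads (6.37 TPM) in W2, at least 15.9-fold higher there against a floor of 3 reads. It shared 1499 50-base stretches with the overlapping antisense gene Gm10501, and since the sources used here do not say whether counting used strand, reads of either could not be told apart. Hspa12b, a distant HSP70 relative known from endothelial cells, went the other way with 23 reads (2.22 TPM) in W1 and 0 in W2. It was at least 7.72-fold higher in W1, where the summed endothelial markers were higher, and the part of cell type was not tested. The leukocyte sum was also higher there, mostly through Lyz2 and Cd79a.

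The HSP110 genes split. Hspa4 (APG2) was at 23.9 and 26.4 TPM (334 and 372 reads), a ratio of 1.10 (0.950 to 1.28) that counting error does not separate from equal levels. Hspa4l (APG1; chr3:40744495-40796103, plus strand) was at 8.02 TPM (219 reads) in W1 and 0.934 TPM (27 reads) in W2, 8.58-fold higher in W1 (5.74 to 13.3). Its main coding transcript alone gave 8.05-fold (5.38 to 12.5). These close relatives therefore had clearly separate ratios.

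Among small heat shock proteins, Hspb6 (HSP20, a chaperone of smooth muscle) had 0 reads in W1 and 48 reads (10.8 TPM) in W2, at least 15.9-fold higher there. With Hspb8 it was higher in W2, where the basal, contractile, luminal and fibroblast marker sums were all higher. The part of cell type was not tested. Hspb11, which the symbol rule takes although its product is known as a part of cilium transport, had 5 reads in W1 and 0 in W2. Hspb2, Hspb3, Hspb7 and Hspb9 had 0 reads in both.

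TRiC, the cytosolic chaperonin, folds actin and tubulin in a double ring of different subunits that are needed in equal number. Of its 9 members by symbol, 7 were compared, 2 were higher in W2, 1 in W1 and 4 were within 2-fold, at a median log2 ratio of -0.81. As shares of the 7 these are 28.6% toward W2 and 14.3% toward W1, against the 32.9% and 34.7% of all genes. Cct7 stood at 4.39 and 19.3 TPM (41 and 175 reads), a ratio of 4.40 toward W2 (3.12 to 6.34), and Cct8 at 18.9 and 41.9 TPM (137 and 258 reads), a ratio of 2.22 (1.79 to 2.75). Tcp1 was at 59.1 and 115 TPM (1.95-fold, 1.58 to 2.43), Cct5 at 46.5 and 81.9 TPM (1.76-fold, 1.5 to 2.07) and Cct2 at 10.6 and 19.3 TPM (1.82-fold, 1.32 to 2.53). Of the Tcp1 sums, a non-coding processed transcript of 329 bases (41 and 97 reads) supplied 41.1 and 96.6 TPM. The call of Cct8 was lost on FPKM, at a log2 ratio of -0.81, and on the rescaled TPM 5 of the 7 were called toward W2, with Cct2, Cct5 and Tcp1 added, where 37.8% of all genes were. These 5 subunits were all at a higher level in W2, though the ratio of Cct7 lay above the others. Cct4 appeared to go the other way at 34.7 and 21.3 TPM, but a short retained-intron transcript with 21 reads supplied 13.7 TPM in W1. The coding transcript of Cct4 stood at 18.1 and 17.2 TPM (136 and 130 reads), a ratio of 1.05 (0.822 to 1.35). Cct3 had 8 reads in W1, all on retained-intron transcripts, and 0 in W2. The germline relatives Cct6b and Cct8l1 had 0 reads in both. Cct6a, the remaining subunit, is typed as a processed transcript in this annotation and so falls outside the rule; it stood at 56.4 and 78.7 TPM (415 and 589 reads), a ratio of 1.4 (1.23 to 1.59).

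Coding transcripts of the subunits were closer to each other than the gene sums in some cases and not in others. That of Tcp1 was at 10.7 and 18.8 TPM (1.76-fold, 1.33 to 2.35), that of Cct8 at 18.9 and 33.4 TPM (1.77-fold, 1.43 to 2.20) and that of Cct5 at 40.1 and 81.6 TPM (2.04-fold, 1.73 to 2.40). That of Cct7 was still 5.02-fold higher in W2 (3.01 to 8.85), from 18 and 91 reads. Levels of different subunits should not be ranked, because each gene has a different share of stretches that belong to 1 transcript alone. These were 235 of 2397 for the coding transcript of Tcp1 and 416 of 1804 for that of Cct5. In the Tcp1 transcript, 531 stretches also occurred in other genes.

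J-domain proteins formed the largest group. In class A, Dnaja2, a general HSC70 partner, stood at 120.1 TPM (1062 reads) and 147 TPM (1312 reads), a ratio of 1.23 (1.13 to 1.33). In class B, 2 of 7 compared members (28.6%) were higher in W1 and 3 (42.9%) in W2, against 34.7% and 32.9% of all genes. Dnajb6, which suppresses aggregation of polyglutamine proteins (chr5:29735688-29818134, plus strand), stood at 229.6 TPM (1110 reads) in W1 and 81.7 TPM (407 reads) in W2, 2.81-fold higher in W1 (2.51 to 3.15). Dnajb14, an ER membrane J protein (chr3:137867675-137916557, plus strand), had 166 reads (5.78 TPM) in W1 and 0 in W2, at least 55.7-fold higher in W1. Dnajb6 was the most heavily counted member that stood higher in W1, and Dnajb14 had the highest read count of the members with reads in that library alone.

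Class C holds proteins that share little beyond the J domain. Of 18 compared, 4 (22.2%) were higher in W1, 5 (27.8%) in W2 and 9 within 2-fold. The shares over all genes were 34.7% and 32.9%. Dnajc13 (RME-8, an endosome protein; chr9:104151282-104262930, minus strand) gave the widest difference toward W1, at 43.8 TPM (455 reads) and 1.55 TPM (38 reads). Short retained-intron transcripts made up part of the level in W1; the full-length coding transcript stood at 17.1 TPM (415 reads) and 1.55 TPM (38 reads), 11.0-fold higher in W1 (7.88 to 15.8). Dnajc1, an ER membrane protein, was at 5.05 and 1.39 TPM (68 and 23 reads), a ratio of 3.63 (2.23 to 6.10), and its better counted coding transcript gave 2.65 (1.53 to 4.76). Dnajc30, a mitochondrial protein, was at 40.3 and 18.6 TPM (203 and 94 reads), a ratio of 2.17 (1.69 to 2.81), and its call was lost on the rescaled TPM (log2 ratio 0.80). Toward W2, Dnajc22 had 0 and 63 reads (13.2 TPM), at least 20.9-fold higher there.

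Dnajc19 (TIM14, a part of the motor that pulls proteins into mitochondria; chr3:34056020-34081321, minus strand) stood at 8.15 TPM (56 reads) and 47.5 TPM (358 reads), 5.83-fold higher in W2 (4.39 to 7.87). Dnajc9, a histone chaperone, was at 8.30 and 22.1 TPM (2.66-fold, 1.85 to 3.91), and Dnajc21, which acts in ribosome assembly, at 7.05 and 17.3 TPM (2.46-fold, 1.72 to 3.58), with its call lost on FPKM (log2 ratio -0.90). All 3 were on the side of W2. Dnajc27 at 5.55 and 4.75 TPM (1.17-fold, 0.835 to 1.64) and Dnajc11, a mitochondrial protein, at 2.72 and 3.02 TPM (1.11-fold, 0.630 to 1.96) had intervals that include equal levels. Dnajc16 had 26 and 5 reads and stayed within 2-fold on the scale of TPM + 1, with a log2 ratio of 0.94, because its levels were low.

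Processed pseudogenes, copies of spliced transcripts put back into the genome, are common for chaperones, and short reads can be counted on a copy or on its parent. Copies that shared 100 or more 50-base stretches with a member were listed after the values were seen. There were 20 with reads, for 10 members. Of the 17 compared 2 were higher in W1, 7 in W2 and 8 within 2-fold, beside 34.7% and 32.9% of all genes. Hspa8 (HSC70), the constitutive HSP70, is known to be abundant in nearly all cells. It was listed with 16 reads (1.67 TPM) in W1, all on a retained-intron transcript, and 0 in W2. Its copy Gm15459, only 22 of whose 1892 50-base stretches were its own, stood at 45.2 TPM (266 reads) and 184 TPM (1087 reads), and Gm8355, another copy, at 21.3 and 79.0 TPM. Hspa8 and its copies together stood at 70.0 and 266 TPM, 3.8-fold higher in W2 (3.41 to 4.25), which is the opposite direction from the gene alone. Genes of other types were not added, among them Gm26825, a long non-coding RNA gene that also shared 100 or more stretches with Hspa8.

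Dnaja1 and Hspb1 gave the same pattern. The Dnaja1 copies Gm15542 (116 and 479 TPM, 419 and 1743 reads) and Gm7816 (18.8 and 107 TPM) far exceeded the gene, and gene and copies together stood at 152 and 596 TPM, 3.91-fold higher in W2 (3.57 to 4.29). For Hspb1, the copy Hsp25-ps1 stood at 12.6 TPM (24 reads) and 95.2 TPM (183 reads), and the sum was 7.36-fold higher in W2 (4.83 to 11.7). With copies added, 7 of 11 heat shock members compared were higher in W2 and none in W1, against 32.9% and 34.7% of all genes. Dnaja1 and Hspb1 were called higher in W2 through the reads of their copies, and this step was chosen after the values were seen. Hsp90aa1 with its copies gave 18.7 and 32.5 TPM (1.74-fold, 1.39 to 2.18), and Hspd1 kept nearly its own ratio at 2.57 (2.28 to 2.90). Conversely, Dnajb6 with 5 copies came to 376 and 222 TPM (1.69-fold toward W1, 1.55 to 1.86), and Dnajc19 with Dnajc19-ps to 116 and 172 TPM (1.48-fold toward W2, 1.24 to 1.77), so these were no longer past 2-fold. Reads from a parent and from a transcribed copy cannot be told apart in these tables.

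**Figure D5:**
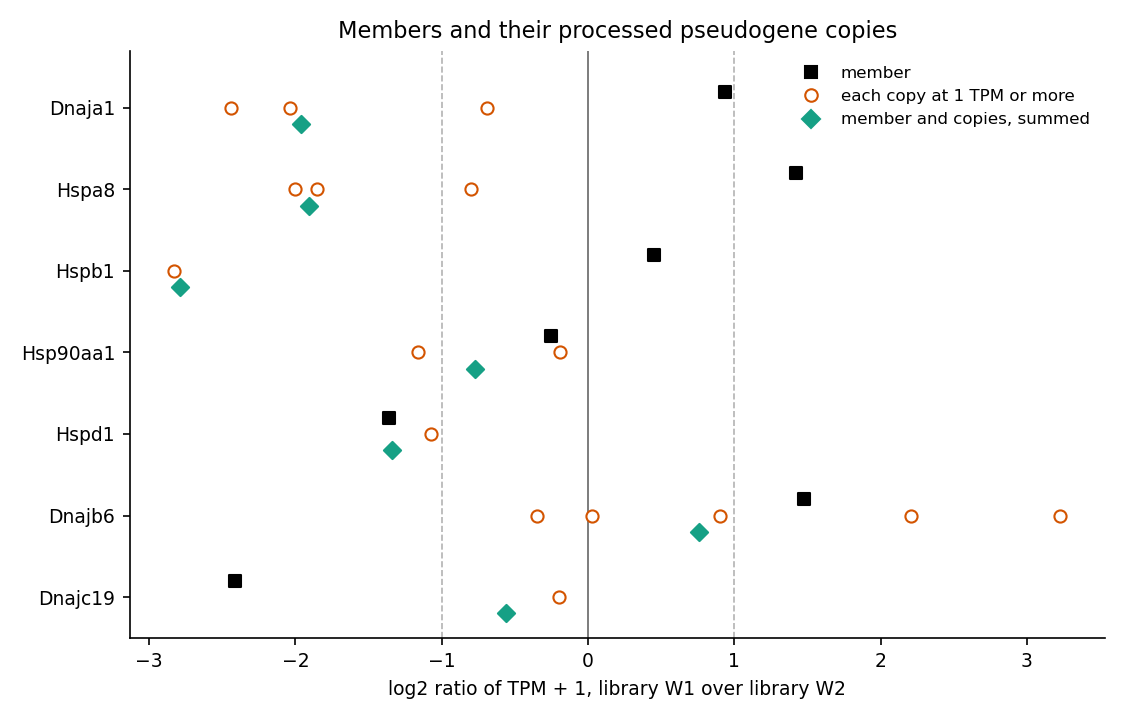
Log2 ratio of TPM + 1, W1 over W2 (x axis), for 7 members with processed pseudogene copies (y axis); squares are the member, open circles each copy at 1 TPM or more, diamonds the member and copies summed, and dashed lines 2-fold either way. For Dnaja1, Hspa8 and Hspb1 the square lies right of 0 and the diamond left of the 2-fold line.

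Transcripts with retained introns were met more often in W1. Among members, 24 such transcripts had reads in W1 and 7 in W2, and they made up 3.06% and 0.826% of the summed member level. Over all genes the numbers were 3407 and 1603 transcripts, with 1.38% and 0.868% of all TPM. The percentages of members and of all genes have unlike bases and are not compared. Coding transcripts made up 94.3% of the member level in W1 but 38.8% of all TPM there. The members whose reads in W1 lay on retained-intron transcripts alone, Hspa8, Cct3, Hsf1 and Dnajb4, thus give no count of a mature transcript there.

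Partners of the chaperones outside the symbol rule were read from a list of 50 co-chaperones, folding enzymes and regulators of the ER response. Of 43 compared, 7 (16.3%) were higher in W1, 11 (25.6%) in W2 and 25 within 2-fold, at a median log2 ratio of -0.20. Both shares lie below the background of 34.7% and 32.9%. Bag2, an exchange factor that inhibits the ubiquitin ligase Chip, had 0 reads in W1 and 1926 reads (339 TPM) in W2, at least 638-fold higher there. Cryab, a small heat shock protein named outside the Hspb series, had 0 and 42 reads (12.3 TPM), at least 13.9-fold higher in W2, and Bag5 stood at 4.94 and 22.2 TPM, a ratio of 4.50 (3.05 to 6.82). Bag2, Bag3 and Bag5 were thus each higher in W2. Toward W1, Pfdn4, a subunit of the actin and tubulin carrier prefoldin, had 24 reads (8.03 TPM) and 0 in W2, at least 8.05-fold higher. Hsf2, a relative of Hsf1, had 39 reads (3.61 TPM) and 1 read, a ratio of 50.1 with an interval from 8.48 to 2029. Manf, a secreted ER stress factor, stood at 14.1 and 2.72 TPM (40 and 4 reads), a ratio of 5.18 (1.87 to 20).

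The 19 members with 0 reads in both libraries were Hspa2, Hspb2, Hspb3, Hspb7, Hspb9, Cct6b, Cct8l1, Dnajb5, Dnajb7, Dnajb8, Dnajb12, Dnajb13, Dnajc2, Dnajc5b, Dnajc5g, Dnajc6, Dnajc12, Dnajc24 and Dnajc28. A count of 0 allows up to 3 reads by counting error, and where reads fit several transcripts it does not show that a gene was silent. Of the 58 members compared, 47 had reads in both libraries, 5 in W1 alone and 6 in W2 alone.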

How the data were processed

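RNA of 2 sorted mouse mammary libraries was measured by stranded RNA-seq on an Illumina instrument, per the labels' protocols, which also name a low-input lysis reagent. The authors deposited FPKM and TPM values, each a table of 137767 Ensembl transcripts with a column per library; TPM are the deposited FPKM rescaled to the same total in each library. Bowtie 0.12.2 and the builds mm8 and GRCm38 are named in the submitters' processing notes; for the counter, annotation and strand setting the sources used here give nothing. GENCODE M21 (GRCm38) named 137654 transcripts, and TPM were summed per gene. There were 0 columns of other samples.

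FPKM times transcript length falls on steps of 1 read, and within 0.1 read 98.43% and 98.05% of values above 0 were whole, which gave the counted reads. Genes that reached 1 TPM in either library were compared by the log2 ratio of TPM + 1, a scale that understates the difference of low genes, and called at 2-fold. Exact 95% Clopper-Pearson intervals on the reads, scaled to the TPM ratio, cover counting error only and are approximate where reads lie on transcripts of unequal length; a library with 0 reads was set to a floor of 3 reads. Uniqueness was read from all 50-base stretches of the annotated transcripts.

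Members named are all of the heat shock and ER stress lists, Hsf1 and the TRiC subunits; of the other members in each role, up to 4 with the largest ratio toward each library and 2 with the smallest among those with 20 or more reads; and 3 partners toward each library. Hspa8, the pseudogene copies, Cct6a and further genes named only in counts were chosen after their values were seen. The members and lists were chosen with earlier results of these data known. Both libraries were left without a group, and no test was possible. Steps were tested on simulated data. Python 3.11.15, numpy 2.4.6, pandas 2.3.3, scipy 1.17.1 and matplotlib 3.10.9 were used. Alternatives covered the pseudocount, the filter on low values, FPKM, rescaling, the transcripts summed and a narrower heat shock list; coding transcripts alone and added copies were chosen after seeing the data.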

Additional observations from a re-analysis of the deposited data

How the results depend on the processing

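Another pseudocount cannot change the side a ratio lies on. FPKM and the rescaled TPM scale each library as a whole, and moved the median of all genes by only 0.30 and -0.25. These settings could therefore remove a 2-fold call but not reverse it. Of the 30 called members, 30 kept their call when 0.1 was added to TPM and 17 when 5 was added. On FPKM 26 kept it, and on the rescaled TPM 28. Taking 1 transcript per gene could reverse a call, and there 26 were kept and 0 reversed. With processed copies added, 27 of the 30 called members kept their call and 1, Hspa8, reversed, to a log2 ratio of -1.91. With a pseudocount of 5, members higher in W1 numbered 5, the ER stress list had 1 there, and the constitutive members 4 and 7 (W1 and W2), where the shares over all genes were 16.8% and 19.9%. At 1 TPM or more in both libraries, members numbered 6 and 11 and constitutive members 4 and 6, beside 16.6% and 28.9% of all genes; this filter removes genes found in 1 library alone. The heat shock list had 1 member higher in W1 with a pseudocount of 0.1, FPKM, the rescaled TPM or 1 transcript per gene. Over all genes 33.2% to 37.8% were higher in W1 under those settings. As the narrow list it had 2 of 5 higher in W2, beside 32.9% of all genes. The ER stress list had 1 of 7 higher in W1 on the rescaled TPM and with 1 transcript per gene, beside 33.2% and 34.9% of all genes. The median log2 ratio of the members was -0.01 on FPKM, where the median of all genes was 0.23. No paired analysis was possible because each library stands alone.

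With 2 unreplicated libraries, counting intervals are the sole error given, and they hold no variation between animals or sorts. Members under 20 reads (10 of the 58 compared) can be ranked only loosely, and a 0 depends on how reads shared between transcripts and copies were counted.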

Other observations

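Of the ER partners outside the symbol rule, Manf, Herpud1 (19 and 0 reads) and Atf4 (12 and 2 reads) were past 2-fold toward W1 and Pdia4 toward W2. Xbp1, the transcription factor that Ire1 activates, stood at 479.7 and 245 TPM (3023 and 1541 reads) in libraries W1 and W2, and Calr, an ER lectin chaperone, at 217 and 113 TPM, each just under 2-fold toward W1 (1.95 and 1.92). Pdia6 (135 and 77.3 TPM) and Sil1 (64.8 and 36.6 TPM) also lay toward W1, at 1.75-fold and 1.77-fold. Pdia4, a disulfide isomerase, was 2.13-fold higher in W2 (1.87 to 2.43) at 46.8 and 99.7 TPM. Creld2 at 88.9 and 90.0 TPM and Ddit3 (CHOP) at 73.8 and 83.6 TPM were nearly level. These genes come from the partner list and were picked after their values were seen.

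Among partners of cytosol and mitochondria, Stip1 (HOP, which passes substrates from HSP70 to HSP90) stood at 63.9 and 189 TPM (408 and 1217 reads), 2.96-fold higher in W2 (2.64 to 3.32). Grpel1, the exchange factor of Hspa9, stood at 44.3 and 155 TPM (474 and 1664 reads), 3.49-fold higher there (3.15 to 3.87), while Hspa9 itself was at 178 and 291 TPM. Both have 1 listed transcript. Chordc1 at 17.5 and 35.3 TPM and Clpp at 111 and 229 TPM lay near 2-fold toward the same library. These too were picked after their values were seen.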
